A study of Mus musculus with 36 samples.

Results

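Femoral bone marrow MSCs (fBM-MSCs) had 5032 open chromatin regions that overlapped no region listed for vertebral bone marrow MSCs (vBM-MSCs), adipose MSCs (A-MSCs) or lung MSCs (P-MSCs), and these are called femur-only regions. They were chosen by their own ATAC-seq values: a region of the femoral peak list was kept where a summit had a −log10 q above 7 and no base of it was shared with any line of the other 3 lists, whatever the q of that line. The 5032 regions were 8.86% of the 56769 femoral regions above that threshold. The femoral list holds 99337 regions in all, and the 4 lists together hold 374191. Since the lists chose the members, absence from the other lists is a description here and was not tested.

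The cells were MSCs of C57BL6/J mice that were 8 weeks old, and all were grown on collagen I in MesenCult medium, to which MesenPure and a Rock inhibitor were added, and used within 3 passages. Marrow was taken from crushed femurs for the fBM-MSCs and from crushed vertebrae for the vBM-MSCs, while fat and lung were minced and digested with collagenase for the A-MSCs and P-MSCs. ATAC-seq, in which the Tn5 transposase inserts adaptors into accessible DNA, was summarised as 1 list of peaks for each tissue, from pooled reads of 6 samples (3 replicates). RNA-seq by Smart-seq2 was analysed for 3 fBM-MSC, 2 vBM-MSC, 3 A-MSC and 3 P-MSC libraries, and it serves as the readout that played no part in choosing the regions. The tissues were taken from the same 3 mice by the study's text, but which libraries share a mouse is not given, so p-values treat libraries as independent.

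Open regions far from genes are often enhancers, stretches of DNA where transcription factors bind and act on promoters at a distance, and they differ between cell types more than promoters do. RUNX proteins bind DNA together with their partner Cbfb, and Runx2 and Runx3 are known for their roles in bone and cartilage. AP-1 factors, pairs of Fos and Jun proteins, occupy enhancers in many cultured and activated cells. Cells of the limbs keep the expression of homeodomain genes that set position along the body, such as the posterior Hox genes and Shox2.

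Sequences of 7 femur-only regions are shown because the results below return to them: the strongest region that can be shown, intronic regions of Runx3 and Shox2, and the promoters of Ibsp, Bglap2, Hoxa11 and Mab21l2. They are the plus strand of GRCm38, the assembly also called mm10, over 200 bases around the summit. For Ibsp, Hoxa11 and Mab21l2 only the part before the start of the gene is given. Capitals mark matches on either strand to the RUNX motif (TGTGGT or TGCGGT), the AP-1 motif (TGACTCA or its complement) and the homeodomain motif TAATTA.
Intergenic, the second strongest region, chr7:117842854-117843053: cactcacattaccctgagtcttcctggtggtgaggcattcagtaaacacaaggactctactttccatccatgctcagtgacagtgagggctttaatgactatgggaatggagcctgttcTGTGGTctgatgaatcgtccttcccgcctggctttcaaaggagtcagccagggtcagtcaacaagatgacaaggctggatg
Runx3 intron, chr4:135169238-135169437: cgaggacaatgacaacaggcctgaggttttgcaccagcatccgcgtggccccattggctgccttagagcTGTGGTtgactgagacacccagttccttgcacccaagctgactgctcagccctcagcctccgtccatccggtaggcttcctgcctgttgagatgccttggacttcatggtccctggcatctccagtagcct
Shox2 intron, chr3:66976898-66977097: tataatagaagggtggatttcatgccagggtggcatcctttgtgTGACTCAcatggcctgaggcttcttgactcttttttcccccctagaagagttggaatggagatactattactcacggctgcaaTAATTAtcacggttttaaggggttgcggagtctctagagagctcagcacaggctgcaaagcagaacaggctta
Bglap2 promoter, chr3:88378730-88378929: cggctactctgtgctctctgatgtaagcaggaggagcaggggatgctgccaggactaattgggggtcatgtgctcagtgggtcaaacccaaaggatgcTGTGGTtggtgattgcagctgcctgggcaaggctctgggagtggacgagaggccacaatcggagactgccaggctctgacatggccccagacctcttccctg
Ibsp promoter, chr5:104299124-104299286: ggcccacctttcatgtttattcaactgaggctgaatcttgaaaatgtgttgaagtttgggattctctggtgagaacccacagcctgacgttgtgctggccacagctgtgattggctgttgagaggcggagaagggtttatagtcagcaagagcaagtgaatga
Hoxa11 promoter, chr6:52245817-52245969: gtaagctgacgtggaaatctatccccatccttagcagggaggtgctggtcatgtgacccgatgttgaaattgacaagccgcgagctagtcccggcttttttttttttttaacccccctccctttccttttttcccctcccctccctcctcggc
Mab21l2 promoter, chr3:86548284-86548393: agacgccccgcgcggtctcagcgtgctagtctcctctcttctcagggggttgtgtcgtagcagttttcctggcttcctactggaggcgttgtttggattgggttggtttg
The first 3 of these, all outside promoters, each hold a RUNX match or, in Shox2, an AP-1 and a homeodomain match. Of the promoters, Bglap2 has a RUNX match at the middle of its stretch, next to the summit, and the stretches of Ibsp, Hoxa11 and Mab21l2 shown hold no match to these motifs. The TAATTA match of the Mab21l2 region lies outside the part shown. No match says only that these letters are not in this stretch.

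Femur-only regions were narrow and weak relative to the other femoral regions. The fold enrichments in every list are whole multiples of a step of 0.368, which gives the number of pooled reads at each summit. The step was the same in all 4 lists although the depth behind each is not given in the sources used here, so reads at a summit are compared between tissues on the scale of the lists. The median femur-only region had 16 reads at its summit, with a range from 14 to 94, against a median of 24 in the 51737 femoral regions that overlapped another list. Its fold enrichment over the genome-wide background was 6.25 (median; highest 34.9) and its −log10 q was 9.03 (median; range 7.14 to 122). The median width was 363 bp, from 200 to 1158 bp, against 513 bp in shared regions. Most femur-only regions, 4917, had a single summit, 112 had 2 and 3 had 3.

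Regions just inside the threshold had 14 reads at the summit, a fold enrichment of 5.52 and a −log10 q of 7.14, and there were 1085 of them. Just outside, 1389 femoral regions absent from the other lists had 13 reads, a fold enrichment of 5.15 and a −log10 q of 6.25. The weakest summit in any list had 7 reads, so a site with fewer reads in another tissue would not have been listed there. Absence from a list is therefore not the same as closed chromatin.

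The share of regions found in a single list fell as summits grew taller, and it was highest in fBM-MSCs at every height, with overlapping intervals for the tallest summits. Among regions with 14 or 15 reads, 20.9% were femur-only (95% CI 20.1 to 21.8), while 12.1% of such regions were restricted to vBM-MSCs, 14.5% to A-MSCs and 13.4% to P-MSCs. Among regions with 51 or more reads, 0.182% were femur-only (95% CI 0.0906 to 0.325), which is 11 regions. For the other tissues the corresponding share was 0.0740% (A-MSCs, 95% CI 0.0298 to 0.152), 0.0491% (P-MSCs, 95% CI 0.0159 to 0.115) and 0.0154% (vBM-MSCs). The intervals of A-MSCs and P-MSCs overlap the femoral one. Above the threshold and over all heights, 8.86% of femoral regions were in a single list (95% CI 8.63 to 9.10), against 3.98% for P-MSCs, 4.58% for vBM-MSCs and 4.69% for A-MSCs. These exact binomial intervals, here and below, cover counting error only and treat regions as independent.

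**Figure D1:**
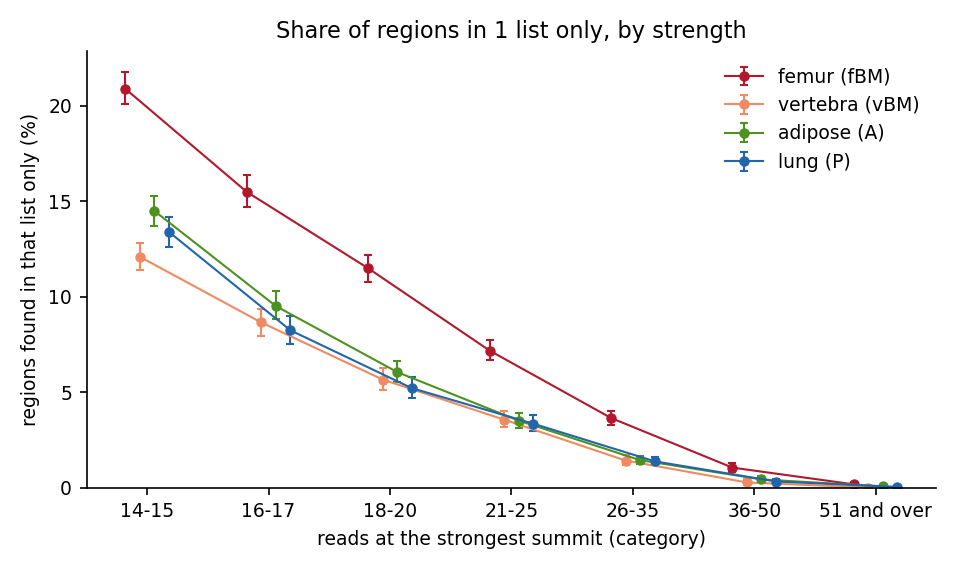
Percent of regions above the threshold that were found in 1 list (y axis) against the pooled reads at their summit in bins (x axis), for each of the 4 tissues, with exact binomial 95% intervals. In fBM-MSCs the share goes from 20.9% at 14 or 15 reads to 0.182% at 51 or more. It is the highest of the 4 in every bin, with an interval that overlaps those of A-MSCs and P-MSCs in the last.

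Distances from femur-only regions to the listed regions of other MSCs varied widely, and the distances of other sites were not measured for comparison. The nearest line of another list was 7046 bp away at the median. It was within 500 bp for 312 regions (6.20%) and within 10 kb for 2960 (58.8%), and it was over 100 kb away for 352 (7.0%). Of the femoral regions above the threshold that did overlap another list, 38401 (67.6% of 56769) overlapped all 3 and 3244 (5.71%) overlapped vBM-MSCs alone. Fewer overlapped A-MSCs alone, 1376, or P-MSCs alone, 1050. By chromosome, the femur-only share ranged from 7.01% on chromosome 19 to 10.6% on chromosome 1.

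Femur-only regions were rarely at promoters. Only 91 of them (1.81%, 95% CI 1.46 to 2.22) had their summit within 1 kb of the transcription start site of a curated RefSeq transcript. Introns held 2180 (43.3%), exons 132 (2.62%) and intergenic DNA 2629 (52.2%). In shared femoral regions the promoter share was 23.2% (95% CI 22.8 to 23.6), and in the shared regions whose −log10 q lay between 7.14 and 18.7, the 10th and 90th percentiles of the femur-only regions (the former also their lowest value), it was 14.3% (95% CI 13.9 to 14.7). A low promoter share was also measured for the regions found in a single list of another tissue: 3.03% for A-MSCs, 2.48% for P-MSCs and 1.81% for vBM-MSCs.

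The median femur-only summit lay 45.4 kb from the nearest start site, and 30.5% lay over 100 kb away. Shared femoral regions outside promoters lay at a median of 29.8 kb, vBM-only regions at 40.2 kb, A-only regions at 28.9 kb and P-only regions at 38.7 kb. The median GC content within 100 bp of the summit was 46.8% in femur-only regions and 47.8% in shared regions outside promoters. Repeats covered over 50% of the window in 248 femur-only regions (4.93%).

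The RUNX motif was more frequent in femur-only regions than in the regions found in the single list of any other tissue. It was present within 100 bp of the summit in 2064 femur-only regions, 41.0% (95% CI 39.7 to 42.4). The share was 21.7% in vBM-only regions (95% CI 20.1 to 23.5), 23.7% in A-only regions and 17.4% in P-only regions. In shared femoral regions it was 25.5%, so that the femur-only share was 1.61 times as high (95% CI 1.55 to 1.67). Against shared regions outside promoters, where 28.6% held the motif, the ratio was 1.43 (95% CI 1.38 to 1.49). At least 2 RUNX matches were found in 9.02% of femur-only regions and in 4.75% of shared regions outside promoters.

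**Figure D2:**
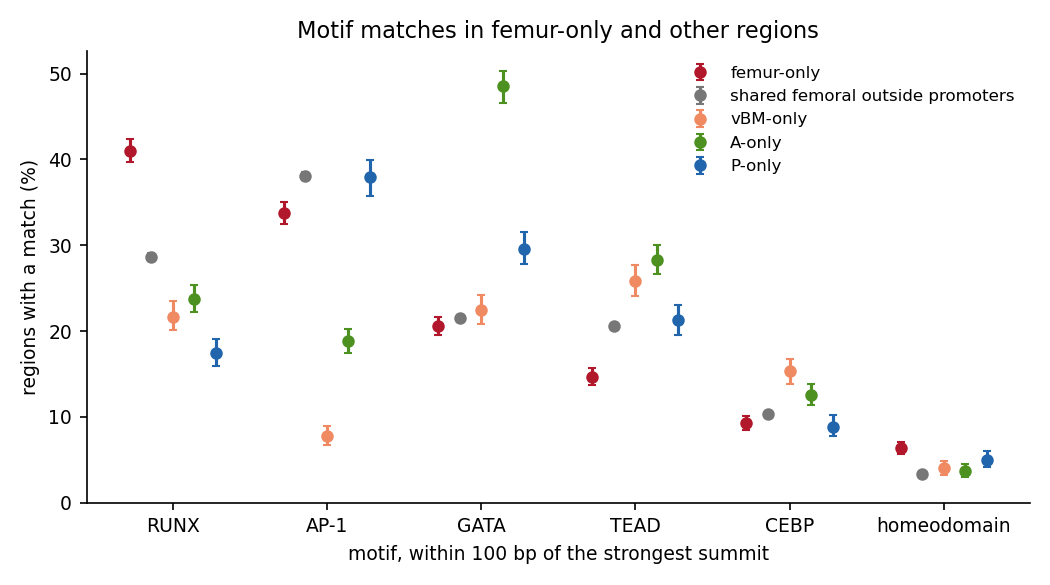
Percent of regions with at least 1 match within 100 bp of the summit (y axis) for 6 motifs (x axis) in femur-only regions, in shared femoral regions outside promoters and in vBM-only, A-only and P-only regions, with exact binomial 95% intervals. RUNX is at 41.0% in femur-only regions and at most 28.6% in the other sets, and GATA is at 48.5% in A-only regions against 20.6% in femur-only regions.

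The share with a RUNX match also followed overlap with the other tissues. Outside promoters it was 41.1% in femur-only regions and 39.4% in femoral regions overlapped by vBM-MSCs alone (95% CI 37.7 to 41.1). It was 36.6% in those overlapped by A-MSCs alone, 27.1% in those overlapped by P-MSCs alone (95% CI 24.4 to 30.0) and 26.4% in those overlapped by all 3. The intervals of the femur-only regions and of those shared with vertebral marrow alone overlapped, while that of vBM-only regions lay below both.

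Within the femur-only regions, taller summits held a RUNX match more often. The share was 38.1% at 14 or 15 reads (95% CI 35.9 to 40.3), 40.3% at 16 to 20 reads, 46.9% at 21 to 30 reads and 50% above 30 reads (95% CI 42.9 to 57.1, 202 regions). Position made less difference, with 38.5% at promoters, 38.6% in exons, 41.6% in introns and 40.8% in intergenic DNA. RUNX matches gathered at the summit. There were 32.3 matches per 100 regions and 100 bp within 25 bp of the summit and 8.51 at 225 to 250 bp. The same figures were 20.2 and 7.91 in shared femoral regions outside promoters, and 13 and 6.88 in vBM-only regions.

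**Figure D3:**
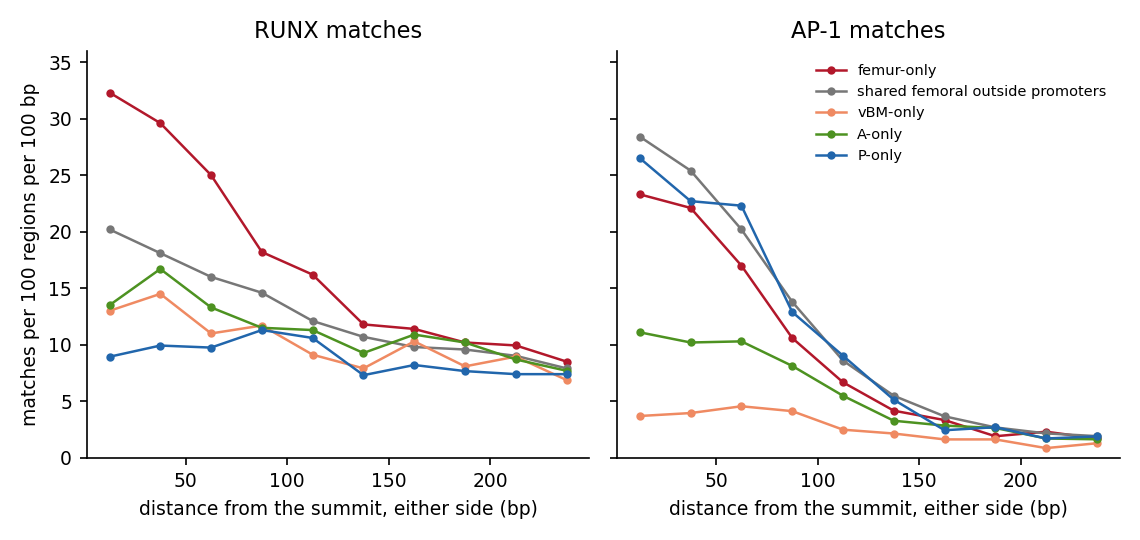
Matches per 100 regions and 100 bp (y axis) against distance from the summit in bp (x axis) for the RUNX and the AP-1 motif, in femur-only regions and the comparison sets. Both motifs peak at the summit of femur-only regions, RUNX at 32.3 and AP-1 at 23.3 within 25 bp, and fall to 8.51 and 1.71 at 225 to 250 bp.

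AP-1 matches were found in 1702 femur-only regions, 33.8% (95% CI 32.5 to 35.1). Whether this is more or less than in shared regions depends on the comparison: the share was 30.4% in all shared femoral regions and 38.1% in those outside promoters. An AP-1 match was held by 7.83% of vBM-only regions (95% CI 6.77 to 9.0), 18.9% of A-only regions (95% CI 17.4 to 20.3) and 37.9% of P-only regions. AP-1 matches were in 17.6% of femur-only promoter regions (95% CI 10.4 to 27.0) and in 37.4% of intergenic ones (95% CI 35.5 to 39.2). Both RUNX and AP-1 were present in 11% of femur-only regions, and neither in 36.2%. Matches of the motifs rarely covered the same bases: 8 of 2608 RUNX matches overlapped an AP-1 match.

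All 2080 words of 6 bases, each taken with its reverse complement, were counted, and among those in at least 5% of femur-only regions or of shared regions outside promoters, TAATTA had the largest ratio between these sets, 1.86. It is the core recognised by many homeodomain proteins. It was present in 6.34% of femur-only regions (95% CI 5.68 to 7.05), 3.40% of shared regions outside promoters, 4.04% of vBM-only, 3.71% of A-only and 5.01% of P-only regions (95% CI 4.14 to 6.0). Since TAATTA was picked from that count, its excess over shared regions is a description. TGTGGT, the RUNX word, was in 38.6% of femur-only and 25.9% of shared regions outside promoters, a ratio of 1.49.

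Other motifs were as frequent in femur-only regions as in shared regions outside promoters, or less so. The GATA motif (AGATAA or TGATAA, or either with G as the last base) was in 20.6% against 21.5%, and in 48.5% of A-only regions. TEAD (GGAATG) was in 14.7% against 20.6%, and in 25.8% of vBM-only regions. C/EBP (TTGCNNAA) was in 9.30% against 10.3%, the NFI half-site (TTGGCA) in 15.5% against 15.6%, TWIST (CATCTG) in 18.1% against 18.3%, PITX (TAATCC) in 5.15% against 5.07% and PU.1 (GAGGAAGT) in 1.97% against 2.12%. The longer motifs were rarer, with MEF2 in 1.23% against 1.14%, the glucocorticoid response element in 0.238% against 0.398% and CTCF in 0.179% against 1.54%. A match of letters is a description and not a binding site.

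Femur-only regions were spread over the genome, with a few dense runs. When regions within 50 kb of each other were joined, 620 runs held at least 2 regions, together 1371 regions (27.2%). Only 5 runs held 5 or more. The longest was at Runx3, where 8 regions lay within 122 kb (chr4:135069848-135191915). The next were a run of 6 near Rad51ap2 and runs of 5 near Sec16b, Lyplal1 and Rps15a. A run of 4 lay at Shox2, within 43.9 kb.

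At Runx3, 5 of the 8 regions lay upstream of the gene, between 50.6 and 6.11 kb from its start. One was at a promoter, with its summit 163 bp before an annotated start site. Another, in an intron and shown above, had the tallest summit of the run, 27 reads, and the last lay behind the gene. Reads at the other summits were 14 to 21. Each of the 8 was 1307 to 6672 bp from the nearest line of another list. RUNX matches were found in 4 of them.

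The most regions assigned to a gene by nearest start site were 8, for Luzp2, Runx3 and Lsamp. Sec16b, Anks1b, Atp10a, Lyplal1, Slc4a3, Nrxn3 and Sox6 had 7 each. Mir6336, Myo16, Dlgap1, 1700121N20Rik and Col22a1 had 6 each. Of these 15 genes, 8 had too few counts to be tested in any tissue: Luzp2, Lsamp, Nrxn3, Mir6336, Myo16, Dlgap1, 1700121N20Rik and Col22a1. The 8 regions nearest to Luzp2 lay 215522 bp or more from any line of another list. Nearest start site is a label of position and does not name the gene a region acts on.

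The 10 strongest femur-only regions had 51 to 94 reads at their summit. The strongest, with 94 reads and a −log10 q of 122, was at the promoter of 9130209A04Rik on chromosome 18, a gene listed at 0 in all 11 RNA-seq libraries. The second, with 74 reads and a −log10 q of 88.7, spanned chr7:117842538-117843336 in intergenic DNA, 273 kb from the start of Rps15a, and was 63.3 kb from any line of another list. The others were nearest to Tgds (63 reads), Kcnb2 (59), Gm6260 and Nav2 (56 each), 3110040M04Rik and Gm3414 (53 each), Gpr158 (52) and Dhx35 (51). An 11th region, nearest to 4933438B17Rik, also had 51 reads and the same −log10 q of 53.1 as that of Dhx35, and is left out of the 10. Of the nearest genes of these 10 regions, 5 were tested, and 1 of the 5 was higher, where 21.0% of all tested genes were. This was Gm3414, higher in fBM-MSCs than in the mean of the other tissues, at a low level of 0.14 to 0.23 TPM in fBM-MSCs (edgeR adjusted p = 0.0457), a call lost in 7 of the 9 fits without 1 library that tested it (adjusted p up to 0.0751). Tgds was lower, at 15.6, 16.4 and 11.8 TPM in fBM-MSCs against 18.1 to 24.1 TPM elsewhere (log2 fold change −0.43 ± 0.13 (SE), adjusted p = 0.0205; 0.0987 without fBM-MSC replicate 3).

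The RNA-seq libraries held 19569650 to 40517739 expected counts. MSC identity was checked on the markers the study names: the summed level of the genes for CD29, CD44, Sca-1 and CD106 (Itgb1, Cd44, Ly6a, Vcam1) was 1428 to 1820 TPM in fBM-MSCs and 983 to 2336 TPM elsewhere. Of the genes for markers that the study used as negative, Cd34 was at 79.2, 72.7 and 10.2 TPM in fBM-MSCs, while the vBM-MSCs were at 7.33 and 7.46, the P-MSCs at 1.69 to 5.15 and the A-MSCs at 0.910 to 1.18 (edgeR adjusted p = 4.63e-05 against the mean of the others), and its part in the results was not tested. The study measured the negative markers as surface protein by flow cytometry and reported all of its MSCs negative, whereas the values here are RNA. No femur-only region was nearest to Cd34, Pecam1 or Ptprc. In bulk libraries, fewer cells of a type and less RNA per cell cannot be told apart.

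Genes with a femur-only region at the promoter were often higher in fBM-MSCs. The 91 promoter regions marked 91 genes, of which 87 are in the RNA-seq table and 40 had enough counts to be tested (CPM of 1 or more in 2 or more libraries). The other 47 in the table stayed at or below 4.64 TPM, and 21 of them had no counts at all. Against the mean of the other 3 tissues, 25 of the 40 (62.5%) were higher in fBM-MSCs, where 21.0% of all 12509 tested genes were. Only 3 (7.50%) were lower, where 18.7% of all were. Their median log2 fold change was 2.53, or 2.35 with genes that had no counts in a tissue set to a floor of 3 counts, against 0.03 over all genes. Of the 40, 12 met the filter only with the fBM-MSC libraries counted, which favours a higher level there. The genes named here that met the filter only with those libraries are Adgrf4, Angpt1, Bglap2, Dlx5, Fcer1g, Gm3414, H2-M1, Hoxa11, Hoxa11os, Mab21l2, Pitx1, Runx3, Shox2, Slc36a2, Sox5 and Sox6, and the p-values given for them are not support that is independent of the filter. Among the 28 that met it in 2 libraries of the other tissues, 14 were higher (50%, against 19.9% of all genes so filtered) and 3 lower (10.7%, against 19.3%).

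The 3 separate comparisons share the fBM-MSC libraries. Against A-MSCs, 20 of 40 were higher (50%; 20.6% of all genes) and 4 lower (20.3% of all), and of the 28 genes that met the filter in the other tissues 11 were higher (39.3%; 19.9% of all so filtered) and 4 lower (14.3%; 20.9%). Against P-MSCs, 24 were higher (60.0%; 24.7% of all) and 3 lower (23.0% of all), and 14 (50%; 23.9%) and 3 (10.7%; 23.7%) of the 28. Against vBM-MSCs, 9 were higher (22.5%; 5.24% of all) and 4 lower (10%; 7.56% of all). Of the 28, 5 were higher (17.9%, against 5.13% of all so filtered) and 4 lower (14.3%, against 7.80%), so that the 2 directions were close in number there. Of the 40, limma called 18 higher and 4 lower, and a model of the 2 tissues alone called 2 higher and 1 lower. The last comparison rests on 2 vertebral libraries, and without vBM-MSC replicate 1 it gave 5 calls in place of 13.

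**Figure D4:**
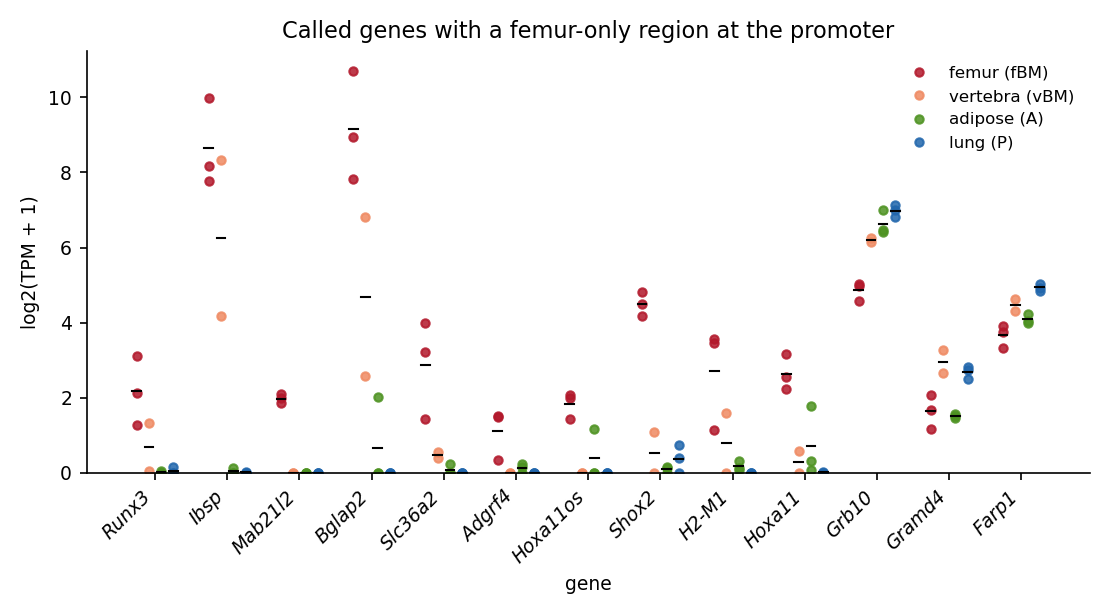
Expression as log2(TPM + 1) (y axis) in each library (dots) with the mean (bar) for 13 genes, by tissue. Of the 28 genes with a femur-only region at the promoter called against the mean of the other tissues, the 10 largest increases and the 3 decreases are shown. In the 10 the fBM-MSCs lie highest on average, and in Grb10, Gramd4 and Farp1 they lie below vBM-MSCs and P-MSCs on average.

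Bone matrix genes had the highest levels among these. Ibsp encodes bone sialoprotein, a protein of mineralised matrix. It was at 218, 286 and 1010 TPM in fBM-MSCs, at 16.9 and 321 in vBM-MSCs and at 0.08 or less in each A-MSC and P-MSC library (edgeR adjusted p = 1.34e-05 against the mean of the others). The fBM-MSC and vBM-MSC libraries overlapped, and the vertebral comparison was not significant (log2 fold change 1.71 ± 0.90 (SE), adjusted p = 0.244). The promoter region, chr5:104299083-104299399, had 14 reads at a summit 63 bp before the start site and lay 33.9 kb from any line of another list.

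Bglap2 encodes osteocalcin, which osteoblasts secrete. Its level was 224, 490 and 1673 TPM in fBM-MSCs, 4.97 and 111 in vBM-MSCs, 3.03, 0 and 0 in A-MSCs and 0 in all P-MSCs, with no overlap of the femoral libraries with any other (adjusted p = 0.000157). Against vBM-MSCs the log2 fold change was 3.99 ± 1.23 (SE), adjusted p = 0.0634. Its near-identical neighbour Bglap shares sequence with it, so the split of reads between them is uncertain. In both genes, fBM-MSC replicate 3 was by far the highest library.

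Limb patterning genes were also among the promoter genes. Shox2, a homeodomain factor of the proximal limb, was at 17.1, 21.6 and 27.1 TPM in fBM-MSCs and at 1.1 TPM or less in every other library (log2 fold change 7.02 ± 0.75 (SE), adjusted p = 4.08e-05). Against vBM-MSCs it was 5.41 ± 1.16, adjusted p = 0.0123. Shox2 had 5 femur-only regions, 1 of them with its summit 161 bp before an annotated start site. Hoxa11, which patterns the forearm and lower leg, was at 4.84, 3.67 and 7.89 TPM in fBM-MSCs, at 0 and 0.5 in vBM-MSCs, at 0.05, 0.25 and 2.42 in A-MSCs and at 0.02 or less in P-MSCs (adjusted p = 0.00138 against the mean of the others, 0.0782 against vBM-MSCs and 0.106 against A-MSCs). The antisense gene Hoxa11os, whose start lies in the same region, was at 2.99, 1.69 and 3.22 TPM in fBM-MSCs and at 0 in every other library but 1 A-MSC library at 1.26 TPM. It was called against the mean of the others (adjusted p = 0.00694), a call that DESeq2 did not make, and not against A-MSCs (adjusted p = 0.228) or vBM-MSCs (adjusted p = 0.0833). Smart-seq2 does not keep the strand, so reads of the pair cannot be told apart where they overlap. Cd34, Farp1, Gm3414, Il7, Nfic, Sec16b and Sox6 overlap other genes as well, and the same holds for their levels.

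Mab21l2, a gene of eye and body wall development, was at 3.24, 2.96 and 2.6 TPM in fBM-MSCs and had no counts in the other 8 libraries. With a floor of 3 counts per tissue, it was at least 109-fold higher than in vBM-MSCs, at least 180-fold higher than in A-MSCs and at least 175-fold higher than in P-MSCs (adjusted p = 0.000111 against the mean of the others and 0.00615 against vBM-MSCs, for a gene that met the filter only with the fBM-MSC libraries). It lies within Lrba, on which unstranded reads could also fall. Its promoter region had 24 reads at a summit 11 bp before the start and a line of another list 1018 bp away.

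The other promoters of the 10 largest increases belonged to genes of varied function. Slc36a2, an amino acid transporter, was at 1.69, 8.27 and 15 TPM in fBM-MSCs and at 0.47 or less elsewhere (adjusted p = 0.000164). Adgrf4, an adhesion G protein-coupled receptor, was at 0.26, 1.86 and 1.81 TPM and at 0.17 or less elsewhere (adjusted p = 0.00143), and it too met the filter only with the fBM-MSC libraries. Without fBM-MSC replicate 2 or 3 it was not tested. H2-M1, an MHC class Ib gene, was at 10.9, 9.95 and 1.18 TPM in fBM-MSCs and at 0 and 1.99 in vBM-MSCs, so that these groups overlapped (adjusted p = 0.00193 against the mean of the others, 0.226 against vBM-MSCs). Slc44a1, a choline transporter, and Kif1a, a kinesin of axonal transport, were picked after their values were seen, for their small errors. Slc44a1 was at 19.7, 22.1 and 24.4 TPM in fBM-MSCs, above every other library (log2 fold change 1.72 ± 0.10 (SE), adjusted p = 8.94e-07). Its promoter region lay 275 bp from a line of another list, and that of Kif1a 261 bp. For Slc36a2 and H2-M1 the distance was 1299 and 50674 bp, and for the 2 regions of Adgrf4 32727 and 33101 bp. Kif1a was at 17.9, 21.6 and 10.3 TPM, and its lowest femoral library overlapped the vBM-MSCs at 9.51 and 10.5 (1.86 ± 0.19, adjusted p = 2.64e-05; against vBM-MSCs adjusted p = 0.0877).

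At 3 promoters a femur-only region went with lower RNA. Grb10, an imprinted adaptor that restrains insulin and growth factor signalling, was at 22.7, 30.5 and 31.6 TPM in fBM-MSCs and at 70.2 to 139 TPM in all other libraries (log2 fold change −1.75 ± 0.16 (SE), adjusted p = 1.31e-05). Farp1, a FERM domain protein, was at 14, 12.4 and 9.07 TPM against 15 to 31.5 TPM (−0.85 ± 0.15, adjusted p = 0.00117). Gramd4 was lower than in vBM-MSCs and P-MSCs but overlapped the A-MSCs, and it was called against the mean of the others (−0.87 ± 0.27, adjusted p = 0.0226), a call lost without fBM-MSC replicate 2 or 3 (adjusted p up to 0.0763). The promoter regions of Farp1, Gramd4 and Grb10 lay 442, 725 and 1952 bp from a line of another list.

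Runx3 carried both the longest run of regions and a promoter region. It was at 1.43, 3.34 and 7.67 TPM in fBM-MSCs, at 0.04 and 1.48 in vBM-MSCs and at 0.1 or less in every A-MSC and P-MSC library (edgeR adjusted p = 0.000572 against the mean of the others). One vertebral library exceeded the lowest femoral one, and the comparison with vBM-MSCs was not significant (log2 fold change 2.56 ± 1.30 (SE), adjusted p = 0.225). Runx2, the factor that osteoblasts require, had 4 regions in its introns. Its level was 5.4, 7.89 and 12.5 TPM in fBM-MSCs and 2.3 to 4.54 in all others, without overlap (1.43 ± 0.24, adjusted p = 0.000682; against vBM-MSCs 1.31 ± 0.35, adjusted p = 0.0324). Its gene overlaps Supt3. Runx1, with 1 region, was not called against the mean of the others (−0.17 ± 0.13, adjusted p = 0.347), with 4.0, 5.59 and 5.07 TPM in fBM-MSCs, and was lower than in A-MSCs (−0.78 ± 0.16, adjusted p = 0.00241). Cbfb, looked at after the others as their partner, was at 35 to 59.2 TPM in fBM-MSCs and was called by a narrow margin (0.38 ± 0.14, adjusted p = 0.0496), which 8 of the 11 fits without 1 library lost (adjusted p up to 0.287).

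Away from promoters the shares of called genes were closer to those of all genes. Each femur-only region was assigned to the nearest start site, giving 3608 genes, of which 1741 were tested, 1702 of them with the closest region beyond 1 kb. Of the 1702, 490 (28.8%) were higher than in the mean of the other tissues and 287 (16.9%) lower, where the shares of all genes were 21.0% and 18.7%. Against vBM-MSCs, 112 (6.58%) were higher and 137 (8.05%) lower, where 5.24% and 7.56% of all genes were. By distance of the closest region, the share of higher genes was 61.5% within 1 kb (39 genes), 31.8% at 1 to 10 kb (368), 27.7% at 10 to 50 kb (768), 27.6% at 50 to 200 kb (463) and 31.1% beyond (103). Of the 39 genes within 1 kb, 11 met the filter only with the fBM-MSC libraries. With the filter met in the other tissues the shares were 50% of 28 genes, 29.5% of 342, 25.9% of 738, 25.6% of 445 and 29.0% of 100.

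**Figure D5:**
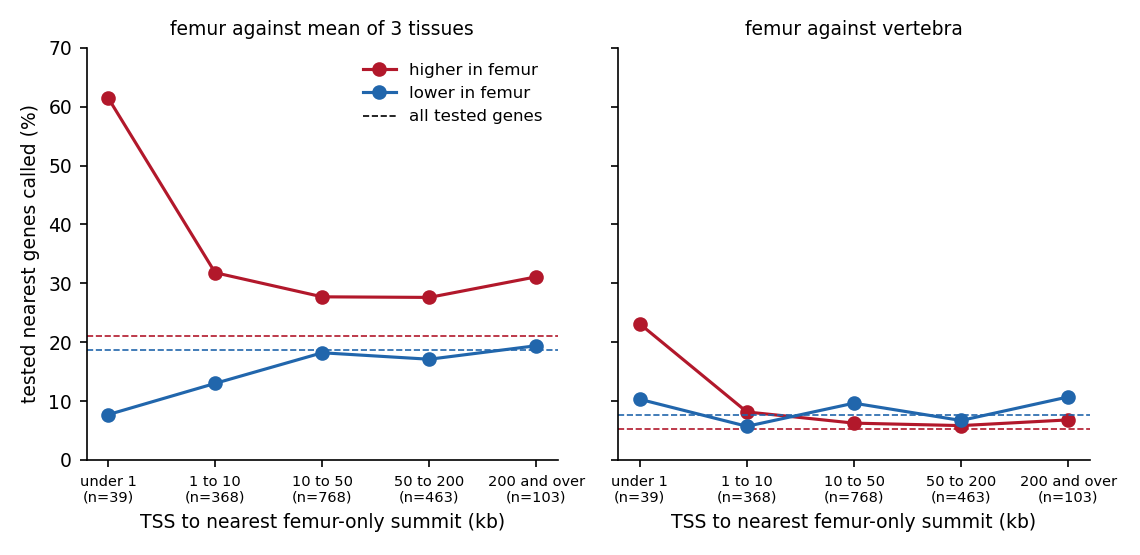
Percent of tested genes called higher or lower in fBM-MSCs (y axis) by the distance of the nearest femur-only region from the start site (x axis), against the mean of the other tissues and against vBM-MSCs, with dashed lines for the share among all tested genes. Against the mean, 61.5% of genes with a region within 1 kb are higher (50% of those that met the filter in the other tissues), against 27.6% to 31.8% in the bins further away.

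Several regions per gene went with a somewhat larger share. Of 309 genes with 3 or more regions, 132 were tested, and 49 (37.1%) were higher and 20 (15.2%) lower than in the mean of the other tissues, where 21.0% and 18.7% of all genes were. Of the 121 that met the filter in the other tissues, 32.2% were higher and 16.5% lower, against 19.9% and 19.3% of all. Of 20 tested genes with 5 or more regions, 7 (35%) were higher, and 29.4% of the 17 that met the filter in the other tissues, shares no larger than those with 3 or more. Against vBM-MSCs, 12 (9.09%; 5.24% of all) of the 132 were higher and 11 (8.33%; 7.56% of all) lower. The share of higher genes was not larger near regions with a RUNX match, a difference that was not tested. Of genes nearest to a region with a RUNX match within 50 kb, 28.4% of 550 tested were higher, against 32.7% of 685 for regions without a match. For AP-1 the shares were 31.0% of 342 and 30.6% of 896.

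Among the tested genes with the most regions, directions differed. Lyplal1, with 7 regions, was at 21.2, 18.3 and 24.7 TPM in fBM-MSCs and at 7.32 to 16.8 elsewhere (log2 fold change 1.02 ± 0.13 (SE), adjusted p = 0.000141; against A-MSCs adjusted p = 0.12). Slc4a3, an anion exchanger with 7 regions, was at 3.14, 3.67 and 1.71 TPM in fBM-MSCs, overlapping the vBM-MSCs at 2.85 and 2.44 (1.16 ± 0.25, adjusted p = 0.00384; against vBM-MSCs adjusted p = 0.857). Atp10a, a phospholipid flippase with 7 regions, was the reverse. It was at 0.55, 1.05 and 1.26 TPM in fBM-MSCs and at 3.54 to 14.3 TPM in every other library (−2.89 ± 0.36, adjusted p = 9.58e-05). Sec16b, Anks1b and Sox6, with 7 regions each, did not pass the test (adjusted p from 0.227 to 0.582).

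Lists of genes for the tissues and motifs at hand were searched for members with a femur-only region, at a promoter or by nearest start site. Of 25 osteoblast genes, 9 had 16 regions between them, among them Bglap2, Col1a2, Dlx3, Dlx5, Ibsp, Runx2, Spp1 and Tnfrsf11b. All 9 were tested and 8 were higher than in the mean of the other tissues. The whole list was high as well, with 18 of its 22 tested genes higher (21.0% of all tested genes) and 0 lower by edgeR (18.7% of all), with 0 lower also at an unadjusted p under 0.05 and by DESeq2 and limma. Of the 18 that met the filter in the other tissues, 14 were higher (19.9% of all so filtered). Against vBM-MSCs, 6 of the 22 were higher (5.24% of all) and 1 lower (7.56% of all), and 5 and 1 of the 18.

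Spp1 encodes osteopontin, a matrix protein and cytokine, and had 2 regions, 1 of them over its exons. Its level was 26353, 38360 and 84015 TPM in fBM-MSCs, 1562 and 9037 in vBM-MSCs and 160 to 384 in the remaining 6 libraries (a log2 fold change of 6.09 ± 0.44 (SE) over the mean of the others, adjusted p = 3.78e-06; against vBM-MSCs 3.34 ± 0.66, adjusted p = 0.00835). Dlx5 and Dlx3, homeodomain factors of osteoblasts, were at 9.09, 17.8 and 44.3 TPM and at 7.7, 5.88 and 7.74 TPM in fBM-MSCs. Every other library was at 5.97 TPM or less for Dlx5 and 1.38 or less for Dlx3 (adjusted p = 0.000209 and 7.05e-05). Against vBM-MSCs, Dlx5 was not called (3.05 ± 1.13, adjusted p = 0.111) and Dlx3 was (3.29 ± 0.87, adjusted p = 0.0302). Col1a2, a chain of type I collagen whose region lay 0 bp from a line of another list, was called with overlap (1.19 ± 0.23, adjusted p = 0.00193, and 0.151 against vBM-MSCs). Tnfrsf11b, osteoprotegerin, was not (0.19 ± 0.15, adjusted p = 0.359) and was lower than in vBM-MSCs (−1.39 ± 0.20, adjusted p = 0.00171).

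Of 35 limb patterning genes, 11 had 20 regions: Fgf10, Gli3, Hoxa11, Hoxa9, Hoxc10, Hoxc11, Irx3, Meis1, Meis2, Shox2 and Tbx18. Of the 10 that were tested, 5 were higher, namely Hoxa11, Hoxa9, Hoxc10, Irx3 and Shox2. Over the whole list, 21 of 29 tested genes were higher (21.0% of all tested genes) and 0 lower by edgeR (18.7% of all; 2 lower at an unadjusted p under 0.05, 1 by DESeq2 and 2 by limma). Of the 22 that met the filter in the other tissues, 14 were higher (19.9% of all so filtered). Against vBM-MSCs 10 of the 29 were higher (5.24% of all) and 2 lower (7.56% of all), and 6 and 2 of the 22. Hoxc10, a Hox gene of the hindlimb and lumbar level, was at 19.3, 19.4 and 19.6 TPM in fBM-MSCs, 0.59 and 3.55 in vBM-MSCs, 0.69 to 1.84 in A-MSCs and 0 in all P-MSCs, where it was at least 800-fold lower (adjusted p = 2.17e-05; against vBM-MSCs log2 fold change 3.32 ± 0.67 (SE), adjusted p = 0.0129). Hoxa9 was at 6.08, 7.82 and 6.64 TPM in fBM-MSCs and at 3.15 or less elsewhere (3.26 ± 0.57, adjusted p = 0.00102) and was not called against vBM-MSCs (1.90 ± 0.85, adjusted p = 0.17). Its promoter region lay 482 bp from a line of another list. Irx3 was at 10.8, 10.8 and 28.3 TPM in fBM-MSCs and 1.58 and 9.39 in vBM-MSCs (5.28 ± 0.50, adjusted p = 1.7e-05, against the mean; adjusted p = 0.117 against vBM-MSCs). Pitx1, the hindlimb selector, named after its values were seen, had no femur-only region and was at 3.46, 3.0 and 6.5 TPM in fBM-MSCs and at 0.09 or less elsewhere (adjusted p = 6.38e-05). Meis1 had a region and was at 1.77, 4.04 and 2.03 TPM in fBM-MSCs against 5.86 to 13.4 TPM in A-MSCs and P-MSCs, but was not called against the mean by edgeR (−0.75 ± 0.30, adjusted p = 0.0645). Meis1 was called lower by DESeq2 and limma, without fBM-MSC replicate 2 (−1.17) and without vBM-MSC replicate 1 (−0.90).

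The chondrocyte list had 7 of 14 genes with a region, 17 regions in all, of which Sox6 took 7 and Hapln1 4. Of the 4 of them tested, Hapln1 and Sox5 were higher than in the mean of the other tissues (adjusted p = 0.0128 and 0.0162), at 1.71 TPM or less in fBM-MSCs, with libraries that overlapped the vBM-MSCs. Neither was called without fBM-MSC replicate 3 (adjusted p = 0.0636 and 0.361), with replicate number as a block in the model, or by limma. Col11a1, a collagen chain of cartilage, was at 1.99, 1.74 and 4.46 TPM in fBM-MSCs and at 6.96 and 10.5 in vBM-MSCs, where it was higher (log2 fold change −1.61 ± 0.36 (SE), adjusted p = 0.0139). Against the mean it was not called (−0.37 ± 0.28, adjusted p = 0.313), except as lower without fBM-MSC replicate 3 (−0.93). In the whole list 4 of 9 tested genes were higher (21.0% of all) and 1 lower (18.7% of all) by edgeR. DESeq2 gave the same counts, and limma called 1 higher and 0 lower. Against vBM-MSCs 0 were higher (5.24% of all) and 1 lower (7.56% of all) by edgeR, with 0 higher also at an unadjusted p under 0.05 and by DESeq2 and limma. Acan, Col9a1 and Ihh had regions but too few counts to be tested. Of 16 marrow niche genes, 5 had 6 regions, and 4 of these were higher than in the mean of the other tissues: Angpt1, Cspg4, Foxc1 and Il7. Of these only Il7 was called against vBM-MSCs (adjusted p = 0.011). The log2 fold change against vBM-MSCs was −1.0 ± 0.32 (SE) for Cspg4, at a mean of 8.07 TPM in fBM-MSCs and 16.5 in vBM-MSCs, −0.57 ± 0.55 for Foxc1 and 0.39 ± 1.41 for Angpt1 (adjusted p = 0.0612, 0.549 and 0.893). Cspg4 was not called against the mean without fBM-MSC replicate 1 or 2 (adjusted p up to 0.116). Il7, a lymphoid cytokine, was at 31.1, 25.4 and 16.6 TPM in fBM-MSCs and at 9.69 or less elsewhere (log2 fold change 3.0 ± 0.28 (SE), adjusted p = 1.65e-05). Cxcl12, the fifth, did not pass by edgeR (−0.48 ± 0.18, adjusted p = 0.0565), but was called lower by DESeq2 and limma, with no filter on low counts, without A-MSC replicate 3 (−0.52) and without fBM-MSC replicate 3 (−0.80). In the whole niche list 6 of 15 tested genes were higher (21.0% of all) and 2 lower (18.7% of all), and against vBM-MSCs 1 was higher (5.24% of all) and 2 lower (7.56% of all).

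Of 40 genes for the factors whose motifs were searched, 10 had 20 regions: Runx3 with 8, Runx2 with 4, and Batf3, Mef2a, Nfia, Nfib, Nfic, Nr3c1, Runx1 and Twist2 with 1 each. Of the 9 tested, Runx2, Runx3, Mef2a and Nfic were higher than in the mean of the other tissues and Twist2 was lower. Nfic was not called without fBM-MSC replicate 2 or 3 (adjusted p up to 0.115). Twist2, a repressor of osteoblast maturation, was at 12.5, 3.4 and 1.09 TPM in fBM-MSCs and at 16.1 to 45.5 TPM in every other library (log2 fold change −2.44 ± 0.58 (SE), adjusted p = 0.00591; against vBM-MSCs −2.01 ± 0.67, adjusted p = 0.0713). Over the whole list, 9 of 35 tested genes were higher (21.0% of all) and 13 lower (18.7% of all), and against vBM-MSCs 4 were higher (5.24% of all) and 10 lower (7.56% of all). Of AP-1, Fos, Fosb, Fosl1 and Fosl2 were lower and Jund was higher than in the mean of the other tissues. Tead1, Tead2, Tead3 and Tead4 were lower. With the filter met in the other tissues, 7 of 33 genes of this list were higher and 13 lower than in the mean of the other tissues. The counts were 4 and 2 of 13 in the niche list and 3 and 1 of 7 in the chondrocyte list. Of all genes so filtered 19.9% were higher, close to the share of the motif factors, and 19.3% were lower.

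Markers of other cell types were examined because marrow cultures can hold them. The 12 macrophage markers summed to 40.9 to 69.2 TPM in fBM-MSCs, while the sums were 21.8 to 51.4 (vBM-MSCs), 16.2 to 25.1 (A-MSCs) and 9.48 to 12.4 (P-MSCs). In every fBM-MSC library, 6 of the 12 were at 0, among them the defining genes Adgre1, Itgam, C1qa, C1qb and Spi1. Lyz2 was at 22.2, 22.4 and 36.4 TPM in fBM-MSCs, at 19.8 and 38.6 in vBM-MSCs and at 1.76 to 12.8 elsewhere (log2 fold change of 1.75 ± 0.26 (SE) over the mean of the others, adjusted p = 0.000320; adjusted p = 0.967 against vBM-MSCs). Fcer1g was at 4.70, 15.9 and 19.8 TPM, at 0 and 8.21 in vBM-MSCs and at 0 elsewhere (adjusted p = 0.00432 against the mean of the others, 0.475 against vBM-MSCs). One femur-only region was nearest to Fcer1g, in its intron (chr1:171231860-171232357, 19 reads), and 1 each to the neutrophil gene Ltf and the endothelial gene Tek. Neutrophil markers summed to 0.640 to 10.3 TPM and endothelial markers to 1.06 or less in fBM-MSCs, and all B cell, T cell and mast cell markers were at 0 there. Erythroid markers reached 0.530 and megakaryocyte markers 1.11 TPM. Peak counts per replicate were not used here, and the part of these cells in the peak list was not tested.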

How the data were processed

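The RNA-seq and ATAC-seq data of MSCs from 4 tissues were used as deposited, without the reads. For RNA-seq, the authors ran RSEM with STAR against mm10, which gives the deposited expected count of each gene, not normalized, and its TPM, scaled by the authors' RSEM run for transcript length and to a fixed sum. The FPKM and gene lengths beside them were not used. The third vBM-MSC replicate is not analysed here. For ATAC-seq, the authors trimmed reads (Trim Galore), aligned them with Bowtie, kept unique alignments, removed duplicates (Picard), shifted reads for Tn5, dropped regions on the blacklist and ran MACS2 with the local background switched off. Their deposited lists give for each summit the fold enrichment, a ratio to the genome-wide background, the −log10 q and the summit offset in bases. Versions are not given in the sources used here.

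Lines with the same coordinates were merged into regions, and the strongest summit was kept. Reads at a summit were recovered from the fold enrichment, whose values were whole steps within 0.05 of a step for 100% of lines. The lists hold chromosomes 1 to 19. Positions are those of curated RefSeq transcripts on GRCm38, and 13 consensus motifs were searched on both strands. Rounded expected counts were tested in 1 model of all 11 libraries with the quasi-likelihood test of edgeR (4.0.16, under R 4.3.3; two-sided, TMM, Benjamini-Hochberg over 12509 genes, threshold 0.05), contrasting fBM-MSCs with each tissue and with the mean of the 3. Scripts were tested on data with known answers. Alternatives used DESeq2 1.42.0 and limma 3.58.1. Other work used Python 3.11.15, pandas 2.3.3, numpy 2.4.6, scipy 1.17.1, pysam 0.24.0 and matplotlib 3.10.9.

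A region was assigned to the nearest start site and to each gene with a start within 1 kb. Named are the nearest genes of the 10 strongest regions, the 15 genes with the most regions, up to 10 genes in each direction with the largest change among called genes with a promoter region, and the members of the gene lists that have a region. A gene of the osteoblast list is counted there but not reported here. Exceptions are said to be picked after their values were seen, as were Cd34, Lyz2 and Fcer1g. The members and lists were chosen with earlier results of these data known. Replicate numbers did not pair the libraries.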

Additional observations from a re-analysis of the deposited data

How the results depend on the processing

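The number of femur-only regions followed the threshold: 8346 at a −log10 q above 5, 2486 above 10 and 392 above 20. It was 10237 when only lines above 7 in the other lists counted as open there. With promoters taken as 2.5 kb, 4.79% of femur-only and 27.8% of shared regions were at one. The ratio of RUNX shares, 1.61, was 1.77 within 50 bp, 1.33 within 250 bp and 1.43 outside promoters. The AP-1 ratio, 1.11, turned to 0.889 outside promoters, and the GATA ratio, 1.11, to 0.958 outside promoters and 0.970 in shared regions of similar q.

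Of the 40 tested genes with a promoter region, 28 were called against the mean, 13 against vBM-MSCs, 24 against A-MSCs and 27 against P-MSCs. Within 2.5 kb 122 genes were tested, and 68, 28, 63 and 65 were called. Against the mean 54 of the 122 were higher and 14 lower, where 21.0% and 18.7% of all tested genes were. With regions above 20, where 2 genes were tested, they numbered 2, 0, 1 and 2 by edgeR (for the 0, 1 at an unadjusted p under 0.05, by DESeq2 and by limma). A single tested gene had 3 such regions, and the count with 3 or more regions went from 69 to 0 by edgeR (1 at an unadjusted p under 0.05, 0 by DESeq2 and limma). With the filter met in the other tissues, 28 promoter genes were tested, and 17, 9 (5 higher, 4 lower), 15 and 17 were called. The vertebral count was 22 by limma and 3 in a model of 2 tissues. With gene bodies in place of nearest start sites, 56 genes with 3 or more regions were tested. Of these 29 were called (22 higher, 7 lower), against 69 of 132 by nearest start site. Leaving out each library gave 24 to 29, 5 to 16, 21 to 26, 23 to 29 and 57 to 73 calls, the 5 without vBM-MSC replicate 1, where the remaining vertebral library is assumed to vary like the others. With the replicate block the counts were 27, 13, 24, 27 and 65. Deviations of libraries with the same number correlated at −0.03 to 0.12, and 5 of 11 libraries correlated best with their own number. Of 43 named genes called against the mean, none reversed under any alternative that tested it, with Gm3414 not tested without fBM-MSC replicate 1 or 3 and Adgrf4 not without 2 or 3. Calls lost without 1 library were Cbfb in 8 of 11 fits, Gm3414 in 7 of 9, Cspg4, Gramd4 and Nfic in 2 each and Hapln1, Sox5 and Tgds without fBM-MSC replicate 3. The replicate block lost Cbfb, Hapln1 and Sox5, DESeq2 lost Hoxa11os, the fit with no filter lost Gm3414, and limma lost Cbfb, Cspg4, Gm3414, Hapln1, Nfic and Sox5. Of 18 named genes not called, DESeq2 and limma called Cxcl12 and Meis1, the replicate block Rps15a, the fit with no filter Cxcl12, and fits without 1 library Col11a1, Cxcl12, Meis1, Meis2, Nav2, Rps15a and Sox6. Where no cause is given, the cause was not tested. Pooled peak lists give no spread between replicates, and a site with fewer than 7 reads is not listed.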
